A study of Homo sapiens with 2 samples.

Results

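The genes described here are 123 autophagy genes among the transcripts recovered with the RNA demethylase ALKBH5 from HL-60 cells. HL-60 is an established human line of promyelocytic leukaemia and serves as a stand-in for immature neutrophils. A gene was taken as a member when the authors' deposited tables named it in the KEGG pathway Autophagy - animal or in the GO terms autophagy or macroautophagy. Each gene identifier was counted once, and of the many symbols placed on the identifier of AMBRA1 only AMBRA1 itself was kept. Subunits of the vacuolar proton pump whose symbol starts with ATP6V and a set of mTOR pathway genes were to be left out by name. This removed AKT1S1, DDIT4, MTOR, RPTOR, STK11, TSC1 and TSC2, 7 of 130 identifiers. The 123 members stood among 5237 identifiers in the GO and KEGG tables as a whole.

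The study held 2 libraries of HL-60 cells, both labelled with the genotype ALKBH5 and with no treatment or time given. Both library names start with Ctrl (Ctrl_input and Ctrl_ip). The input library came from 10% of the lysate and the immunoprecipitate (IP) from the 80% given to an antibody against ALKBH5. A rabbit IgG control took another 10% and was not analysed here. Title and library name of each library contradict each other on which is input and which is IP, and the tables do not show which is right. With 1 library per group and no value per library in the tables, IP and input could not be compared. A gene is therefore described as listed or not listed, and since the members were chosen by being listed, their presence is a description and not a test. Of 10 genes taken as markers of myeloid precursors 4 were listed (MPO, PRTN3, CD33 and CEBPA). Of 9 taken as markers of other cell types 2 were (EPCAM and PECAM1). Of all protein-coding genes 26.7% were listed, so the tables alone do not check the identity of the cells. How many reads lie behind a listed gene is unknown.

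Macroautophagy encloses cell contents in a double membrane, the autophagosome, and delivers them to the lysosome. A kinase complex around ULK1 starts the process, and a lipid kinase complex around PIK3C3 marks the growing membrane. Lipid transfer proteins then feed the membrane, conjugation enzymes attach LC3 and GABARAP proteins to it, receptors bring in cargo, and tethers and SNARE proteins fuse it with the lysosome. In neutrophils and their precursors autophagy is known to take part in differentiation, degranulation and the release of extracellular traps. ALKBH5 removes N6-methyladenosine (m6A) from RNA, a mark that acts on the splicing, export and stability of transcripts.

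Sequences of the recovered RNA were not analysed here, and the tables give no positions of peaks. The regulatory DNA that could be shown belongs to the start sites of the genes. TFEB, itself a member, is the transcription factor that switches on many lysosomal and autophagy genes through the motif TCACGTGA. In the 250 bases before the gene start, from RefSeq (GRCh38.p14), this motif was found on either strand in 3 of the 106 members that had such a window (2.83%). The same motif was in 1.98% of the windows of all identifiers of the GO and KEGG tables and in 1.25% of those of all protein-coding genes. The windows of these 3 members are given 5′ to 3′ on the strand of the gene, with the motif in capitals. They show where the motif lies in LAMP1, the main membrane protein of the lysosome (chr13:113296989-113297238), in VPS11, a core subunit of the HOPS tether (chr11:119067568-119067817), and in APEX1, a DNA repair endonuclease (chr14:20454976-20455225), all on the plus strand.
LAMP1: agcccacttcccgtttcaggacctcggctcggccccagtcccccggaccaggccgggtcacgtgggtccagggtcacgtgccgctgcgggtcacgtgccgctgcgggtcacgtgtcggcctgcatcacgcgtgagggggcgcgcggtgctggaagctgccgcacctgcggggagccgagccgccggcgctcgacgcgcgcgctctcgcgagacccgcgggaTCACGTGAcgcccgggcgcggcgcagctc
VPS11: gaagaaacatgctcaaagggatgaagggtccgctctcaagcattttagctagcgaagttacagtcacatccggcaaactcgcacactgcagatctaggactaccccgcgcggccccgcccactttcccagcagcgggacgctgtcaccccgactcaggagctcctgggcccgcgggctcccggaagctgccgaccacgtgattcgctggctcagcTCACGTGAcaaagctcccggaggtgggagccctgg
APEX1: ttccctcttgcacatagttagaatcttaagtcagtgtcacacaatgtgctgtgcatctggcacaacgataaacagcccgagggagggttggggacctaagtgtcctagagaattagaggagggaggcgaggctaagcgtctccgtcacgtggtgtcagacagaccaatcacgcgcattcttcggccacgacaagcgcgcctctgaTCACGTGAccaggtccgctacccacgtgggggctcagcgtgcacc
The motif ran from base 29 to base 22 before the start in LAMP1, from 35 to 28 in VPS11 and from 45 to 38 in APEX1. The shorter core CACGTG, which the full motif contains, was in 6 members (5.66%, against 8.96% of all identifiers and 7.84% of protein-coding genes); the further ones were CTSD, RAB24 and ULK3. Among the other motifs searched on both strands, ACTTCCGG, a site bound by ETS family factors, was in 14 members (13.2%), against 8.62% of all identifiers and 5.09% of protein-coding genes. GGGCGG was in 68.9% against 67.2% and 56.0%, CCAAT in 34.9% against 35.6% and 34.5%, and TATAAA in 4.72% against 5.41% and 9.23%. TGACGTCA was in 0 members, against 3.18% of all identifiers and 2.32% of protein-coding genes. These matches describe letters in a window of DNA and say nothing of the binding of a factor or of the RNA recovered with ALKBH5.

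The first question was how the 123 members spread over the autophagy terms. In the authors' deposited table the KEGG pathway had 116 entries on 128 background genes, GO autophagy 119 on 126 and GO macroautophagy 90 on 93. Counted as distinct identifiers these were 59, 60 and 37. In each of the 3 terms 51 entries stood on the identifier of AMBRA1. After the removals 52 members came from the KEGG pathway, 59 from GO autophagy and 37 from GO macroautophagy.

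**Figure D1:**
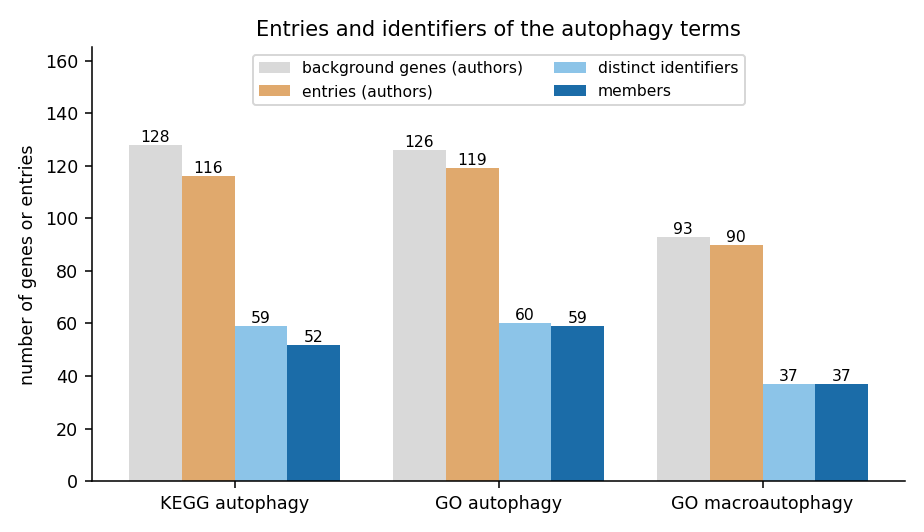
For each autophagy term the bars give the authors' background genes, the authors' entries, the distinct identifiers among those entries and the members kept. The entries nearly reach the background genes (116 of 128 in KEGG), while the distinct identifiers stay well under them (59, 60 and 37).

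The 3 terms shared few members. Only AMBRA1, ATG4B, ATG7, PIK3C3 and ULK1 were named by all 3. Another 8 were shared by KEGG and GO macroautophagy alone (ATG13, ATG16L1, MTMR3, MTMR14, PIK3R4, PRKAA1, WIPI2 and ZFYVE1) and 5 by KEGG and GO autophagy alone (ATG16L2, ATG4D, HMGB1, RUBCN and SUPT20H). SQSTM1 and VCP were the 2 named by both GO terms and not by KEGG. KEGG alone named 34 members, GO autophagy alone 47 and GO macroautophagy alone 22. Genes named by KEGG alone included the growth factor kinases and the stress sensors, and those named by GO macroautophagy alone included the membrane scission machinery.

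The members were then set against lists of 202 genes in 12 steps of autophagy, which covered 71 of them. Of these 202 genes 84 were listed in any table (41.6%), against 26.7% of all protein-coding genes. The lists overlap with the terms that chose the members, so nothing is read from that difference. The GO and KEGG tables alone named 25.7% of protein-coding genes, with or without the 3 autophagy terms.

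**Figure D2:**
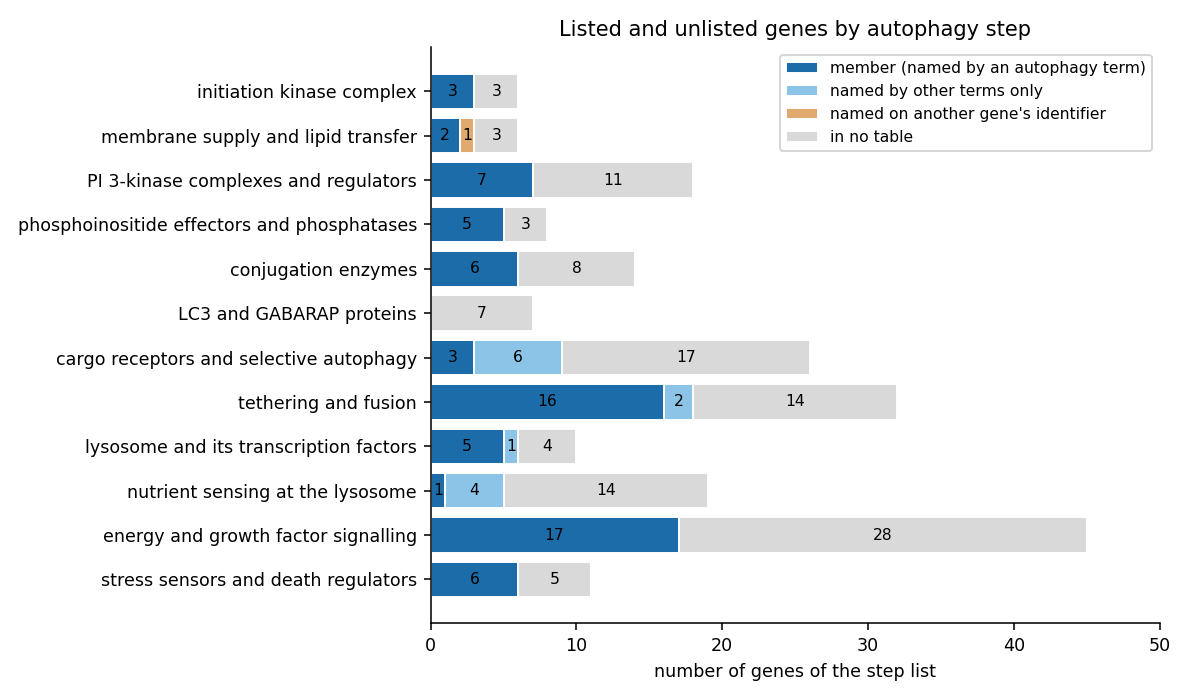
Bars count the genes of each step list that were members, were named by other terms only, were named on the identifier of another gene, or were in no table. All 7 LC3 and GABARAP genes are in no table, and tethering and fusion has 16 members. Of all protein-coding genes 26.7% are in a table.

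In the kinase complex that starts autophagy 3 of 6 genes were listed. ULK1, the kinase itself (chromosome 12, 131894622 to 131923150, GRCh38.p14 here and throughout), was named by all 3 terms and by 11 further terms, among them mitochondrial outer membrane and Rab GTPase binding. ATG13, its regulatory partner (chromosome 11, 46617553 to 46674518), was named by KEGG and GO macroautophagy. The related kinase ULK3 was named by GO autophagy. The other scaffold and partner subunits RB1CC1 and ATG101 and the paralog ULK2 were not listed.

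Of the genes for membrane supply and lipid transfer, ATG2A (chromosome 11, 64894546 to 64917209) and ATG2B (chromosome 14, 96279195 to 96363341) were members. They encode the bridges that move lipids from the endoplasmic reticulum to the growing membrane, and both were named by KEGG alone. ATG9A, the scramblase that works with them, was named only under the identifier of its neighbour ABCB6, a transporter gene 421 bases away on chromosome 2. Its 7 terms were those of that identifier, such as ATP binding and mitochondrial outer membrane, and none was an autophagy term. ATG9A (219219380 to 219229636) was thus no member, and ATG9B, VMP1 and TMEM41B were in no table.

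Among the lipid kinase complexes and their regulators 7 of 18 genes were members. The catalytic subunit PIK3C3 (chromosome 18, 41955234 to 42087830) was named by all 3 terms and its partner PIK3R4 (chromosome 3, 130678934 to 130746829) by KEGG and GO macroautophagy. AMBRA1, a scaffold of this complex (chromosome 11, 46396412 to 46594023), and RUBCN, which restrains it (chromosome 3, 197668867 to 197749820), were members, as were the BECN1 binding protein BCL2L1 and the kinase DAPK3. HMGB1, a chromatin protein that can bind BECN1, was named by KEGG and GO autophagy. The other core subunits BECN1, ATG14, UVRAG and NRBF2 were not listed.

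Proteins that read or remove the lipid mark were listed in 5 of 8 cases. WIPI2, which recruits the conjugation enzymes to the membrane (chromosome 7, 5190233 to 5233855), and ZFYVE1, a marker of the sites where autophagosomes form, were named by KEGG and GO macroautophagy. So were the lipid phosphatases MTMR3 and MTMR14, whereas MTMR4 was named by KEGG alone. WIPI1, WDR45 and WDR45B were not listed.

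Of the conjugation list 6 of 14 genes were members. ATG7, the activating enzyme (chromosome 3, 11272397 to 11576353), and ATG4B, the main protease that trims LC3 (chromosome 2, 241637693 to 241673857), were named by all 3 terms. ATG4D, a further protease, was named by KEGG and GO autophagy. ATG16L1 (chromosome 2, 233251673 to 233295669), which positions LC3 lipidation, and its paralog ATG16L2 (chromosome 11, 72814411 to 72843740) were both members. SUPT20H, a subunit of a histone acetyltransferase complex, was the last. ATG3, ATG5, ATG10, ATG12, ATG4A and ATG4C were not listed.

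The LC3 and GABARAP genes, whose products coat the autophagosome, were listed in 0 of 7 cases. Of all protein-coding genes 26.7% were listed, and nothing is read from a count over 7 genes. These 7 genes are short, between 2.44 kb (GABARAP) and 17.2 kb (MAP1LC3B2), with a median of 11.5 kb of genomic length including introns. Over all step lists the median length was 38.2 kb for listed genes and 33.9 kb for the others. The part of length in the listing was not tested.

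**Figure D3:**
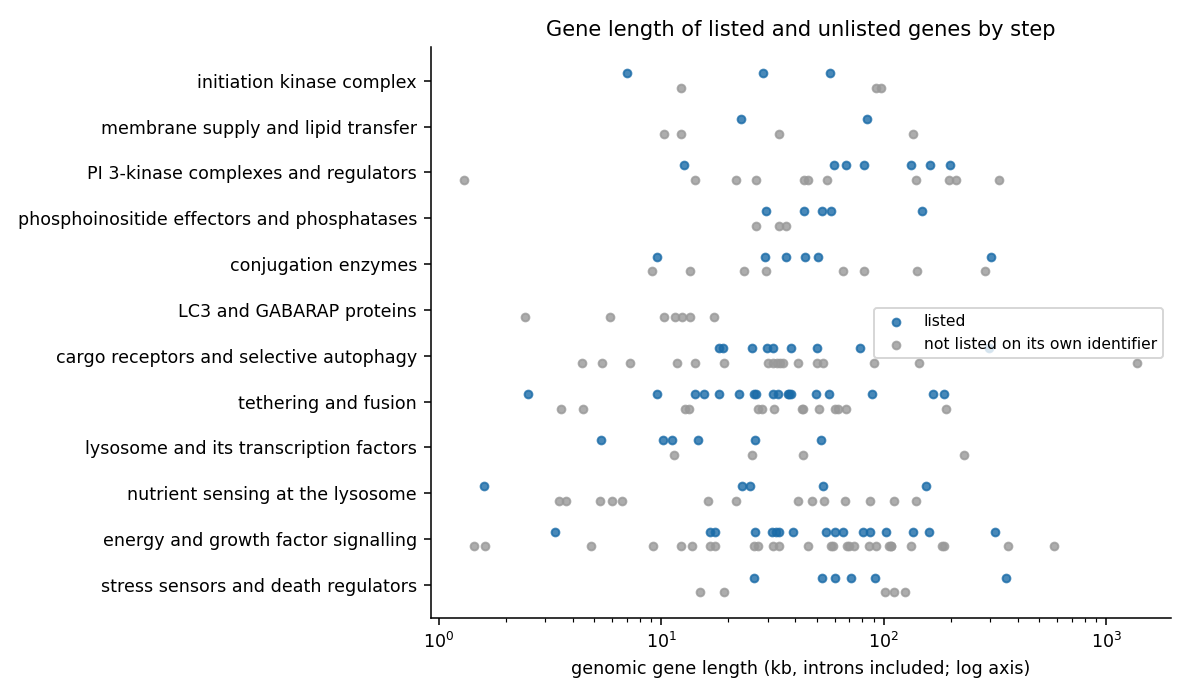
Each point is a gene of a step list, placed by its genomic length in kb on a log axis, with listed genes above those not listed on their own identifier. The medians over all steps are 38.2 and 33.9 kb, and the LC3 and GABARAP genes lie between 2.44 and 17.2 kb.

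Cargo receptors contributed 3 members. SQSTM1, which links ubiquitinated cargo to LC3 (chromosome 5, 179806393 to 179838078), was named by both GO terms. OPTN, a receptor for damaged mitochondria and bacteria (chromosome 10, 13100082 to 13138308), was named by GO autophagy. PINK1, the kinase that marks damaged mitochondria (chromosome 1, 20633458 to 20651511), was named by GO macroautophagy. Another 6 of the 26 genes on this list were named by other terms only: CALCOCO1, NCOA4, WDFY3, RETREG3, RTN3 and NUFIP1. NBR1, CALCOCO2, TAX1BP1 and TBK1 were among the 17 not listed.

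Tethering and fusion was the step with the most members after growth factor signalling, with 16 members and 18 listed genes of 32. All 6 subunits of the HOPS tether were listed, against 26.7% of all protein-coding genes. VPS11, VPS18, VPS39 and VPS41 were members through GO autophagy, and VPS16 and VPS33A were named by other terms only. RAB7A, the GTPase of late endosomes (chromosome 3, 128726183 to 128814798), RAB7B and RAB33B were named by KEGG. RAB8A and RAB24 were named by GO autophagy, as were the tethers EPG5, PLEKHM1 and TECPR1 and the lipid transporter GRAMD1A. HGS, VPS4A and VPS4B, of the membrane scission machinery, were named by GO macroautophagy. None of the SNARE genes on this step list (STX17, SNAP29, VAMP7, VAMP8, YKT6 and STX12) was listed. The SNARE gene VTI1A was not on it and was a member through GO autophagy. Both sets are small and the step list overlaps with the terms that chose the members. Nothing is therefore read from the HOPS genes beside the SNARE genes.

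**Figure D4:**
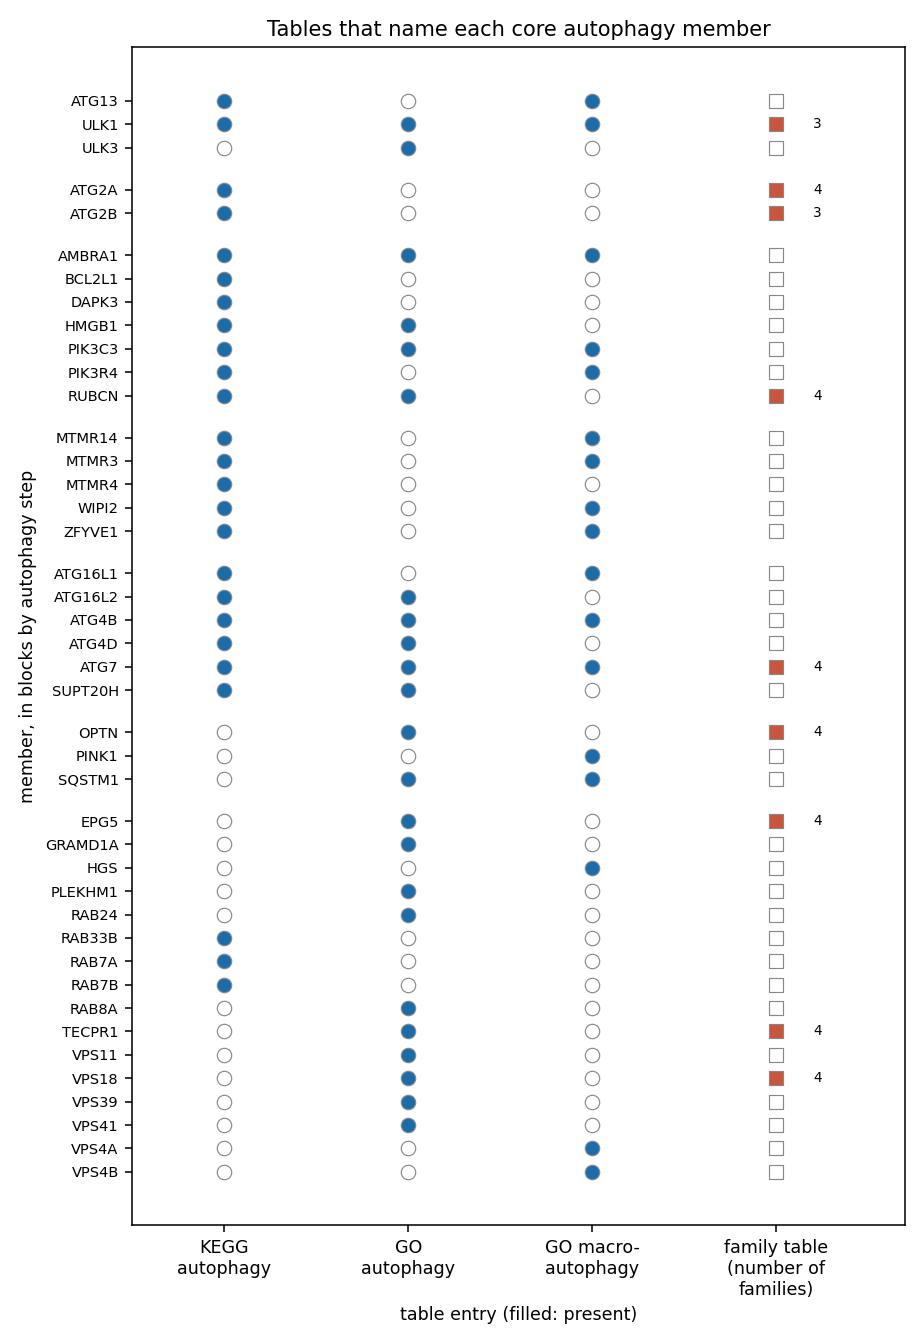
Rows are the 42 members of the first 8 steps in blocks by step, and filled symbols mark the terms that name each and its presence in the family table, with the number of families beside it. ULK1, AMBRA1, PIK3C3, ATG4B and ATG7 are filled for all 3 terms, and tethering members are filled for 1 term each.

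At the lysosome 5 of 10 genes were members, among them the membrane protein LAMP1, the proteases CTSD and CTSL, and TFEB. TFE3, a close relative of TFEB, was named by other terms only, and LAMP2, CTSB, MITF and MCOLN1 were not listed. Of the 19 genes on the list for nutrient sensing at the lysosome only RRAGA, a GTPase that recruits mTOR, was a member. WDR24, a further gene of nutrient sensing, was not on this list and was a member through GO autophagy. NPRL3, SESN2, FLCN and FNIP1 were named by other terms only.

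Energy and growth factor signalling gave 17 members of 45 genes. They included PRKAA1 and PRKAG1, subunits of the energy sensor AMPK, and its upstream kinase CAMKK2. The growth factor arm was represented by IGF1R, IRS2, PIK3CD, PIK3R2, PIK3R3, PDPK1, AKT1 and AKT2, and the Ras arm by HRAS and RRAS2 among others. The kinases PRKACB and PRKCD and the phosphatase regulator IGBP1 were also in the group. Among stress sensors 6 of 11 genes were members: the unfolded protein sensors ERN1 and EIF2AK3, the translation factor EIF2S1, the hypoxia factor HIF1A, the caspase regulator CFLAR and the calcium channel ITPR1.

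Some paralogs were listed in pairs and other families only in part. ATG2A and ATG2B, ATG16L1 and ATG16L2, RAB7A and RAB7B, and VPS4A and VPS4B were listed as pairs. The pairs MFN1 and MFN2, and CSNK2A1 and CSNK2A2, stood in no step list. They were seen only because both genes were members, so nothing is read from them. ULK1 and ULK3 were listed without ULK2, ATG4B and ATG4D without ATG4A and ATG4C, and WIPI2 without WIPI1. PIK3R2 and PIK3R3 were listed without PIK3R1, and HRAS without NRAS.

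A further 52 members stood in no step list and were grouped after their names were seen. The membrane scission group held 6 (TSG101, STAM, MVB12A, VPS25, CHMP6 and VTA1), all named by GO macroautophagy alone. The mitochondrial membrane group held the fusion proteins MFN1 and MFN2 and the import pore TOMM40. Membrane traffic was the largest group with 14, among them the clathrin heavy chain CLTC, RAB12, and TBC1D14 and TBC1D17, which act on Rab GTPases. Protein quality control held 8, among them the segregase VCP, the deacetylases HDAC6 and HDAC10 and the ubiquitin ligases RNF185 and LRSAM1. The immune group held 6: IRF8, a myeloid transcription factor, the phosphatase PTPN22, the receptor CD84, the DNA sensor IFI16, the viral restriction factor TRIM5, and WDFY4, which serves antigen presentation in dendritic cells. Another 5 were kinases (ABL1, SRC, CSNK2A1, CSNK2A2 and RPS6KB2). The lysosomal membrane group held NPC1, ATP13A2 and TCIRG1, the last a subunit of the proton pump that does not carry the ATP6V name. The remaining 7 included ZKSCAN3, a repressor of autophagy genes, and APEX1.

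The identifiers did not always belong to 1 symbol. Of the 123 members 106 carried a single symbol and 17 (13.8%) at least 1 further one, against 6.87% of all identifiers in the GO and KEGG tables. AMBRA1's identifier carried 50 further symbols and each of the other 16 carried 1. In 5 of these 16 cases the further symbol was itself found in the reference. CFLAR-AS1 lies inside CFLAR on the opposite strand, with an overlap of 17504 bases. PINK1-AS overlaps PINK1 by 8855 bases, and VPS13A-AS1 overlaps the start of VPS13A by 384 bases on the opposite strand. MXD3, a transcription factor gene, stood on the identifier of RAB24, from which it is separated by 1779 bases on the same strand of chromosome 5. MAPK12, a stress kinase gene, stood on the identifier of HDAC10, at a distance of 1635 bases on chromosome 22. Neither MXD3 nor MAPK12 was in the tables under its own identifier. Symbols without a match in the reference stood beside ANXA7, BCL2L1, CTSD, MAP1S, MTMR3, PIK3R2, RAB12, RAB8A, TM9SF1, VPS51 and WDFY4.

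The rule made no use of the third deposited table, in which each symbol is paired with up to 4 RNA-binding protein families. Of the 123 members 24 were in it under their own symbol (19.5%), against 19.8% of all identifiers of the GO and KEGG tables. The members' share was thus close to the background and no result about autophagy. All 4 families were paired with 16 of the 123 members (13.0%), against 12.7% of all identifiers. Among the early steps the table held ULK1 with 3 families, ATG2A with 4 and ATG2B with 3, RUBCN with 4, and ATG7 with 4. OPTN, EPG5, TECPR1 and VPS18 were also paired with 4 each. In signalling and stress it held IGF1R and PDPK1 with 3, PIK3CD with 2, and ERN1, ITPR1 and CFLAR with 4. It held 9 of the 52 further members. These were 6 of the 14 genes of membrane traffic (RAB12, SYT11, TBC1D14, TBC1D17, VPS13A and VPS51), and HDAC6, TCIRG1 and WDFY4. None of the 5 members of the lipid mark list or of the 5 at the lysosome was in it. Beside the 19.8% of all identifiers nothing is read from these counts. The groups are small, and those of further members were formed after their names were seen. PIK3R2, MTMR3, MAP1S and HDAC10 were not in it under their own symbols, while the further symbol on each of their identifiers was. For HDAC10 that symbol was MAPK12, with 4 families. The median gene spanned 62.8 kb among members in the family table and 38.4 kb among the other 99; over all identifiers the medians were 42.2 and 33.3 kb. The part of gene length in this was not tested.

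Most members were also named by terms outside the rule that chose them. Apart from the 3 autophagy terms 120 of 123 were named by at least 1 listed term; SUPT20H and WDFY4 were among the 3 that were not. The median was 6 further terms per member, against 4 per remaining identifier, each of which needed at least 1 to be in the tables. AKT1 had the most with 39, followed by ABL1 with 27, SRC with 26, VCP with 25 and APEX1 with 24. Examples from the step lists with few were ATG2B and ATG4B with 1, ATG16L1 and ATG16L2 with 2 and ATG13 with 3. AMBRA1 had 10, ULK1 and PIK3R4 had 11 and PIK3C3 had 15. SQSTM1, PINK1, HMGB1 and VPS4A had 18 each. These are counts of annotation and not of reads.

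**Figure D5:**
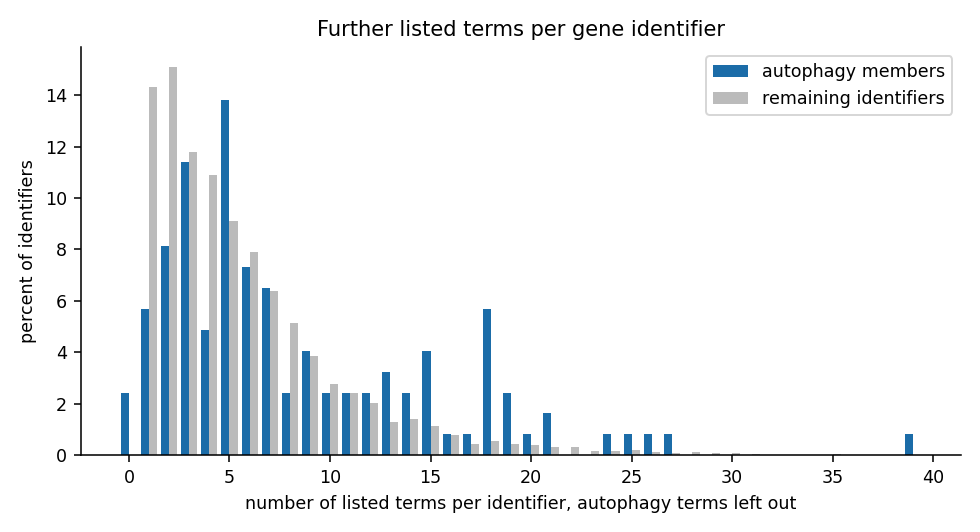
Bars give the percent of autophagy members and of the remaining identifiers with each number of listed terms, with the autophagy terms left out. Members have a median of 6 and reach 39 (AKT1), and remaining identifiers have a median of 4.

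The terms most often shared were cytosol (83 members, 67.5%, against 43.1% of all identifiers), cytoplasm (45.5% against 34.8%), nucleus (35.0% against 41.8%) and nucleoplasm (32.5% against 35.0%). ATP binding (22.8% against 14.9%), membrane (22.0% against 19.2%) and perinuclear region of cytoplasm (19.5% against 5.52%) came next. Protein phosphorylation held 22 members (17.9% against 4.01%), among them ULK1, ULK3, PINK1 and PIK3R4. KEGG Apoptosis shared 16 members (13.0% against 1.22%), among them BCL2L1, CFLAR and the cathepsins CTSD and CTSL. KEGG Endocytosis shared 15 (12.2% against 2.22%), among them RAB7A, HGS, TSG101 and both VPS4 genes. Endosome to lysosome transport shared 10 members with 30 identifiers in all (8.13% against 0.573%). These members included EPG5, RAB7A, RAB7B and the HOPS subunits VPS11, VPS18, VPS39 and VPS41. Neutrophil degranulation shared 9: ATG7, CTSD, HMGB1, LAMP1, PRKCD, RAB24, RAB7A, TCIRG1 and VCP (7.32% against 4.24%). Negative regulation of autophagy shared 6 (4.88% against 0.516%), namely AKT1, PTPN22, RRAGA, RUBCN, TBC1D14 and ZKSCAN3. RNA binding held 8 members (6.50% against 14.9%), which were ANXA7, APEX1, CLTC, EIF2S1, HMGB1, IFI16, USP10 and VCP. Shared terms reflect which annotations these genes carry, and no test was made of these shares.

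Along the genome the members had a median length of 39.0 kb, from 1.60 kb (RRAGA) to 526 kb (SBF2), against a median of 35.0 kb for all identifiers and of 20.1 kb for protein-coding genes in no table. Chromosome 11 held the most members, 15 of 123 (12.2%, against 5.77% of all identifiers), and chromosome 1 held 12 (9.76% against 10.8%). Only AMBRA1 and ATG13, 23.5 kb apart, and TRAPPC4 and VPS11, 43.7 kb apart, lay within 100 kb of each other, both pairs on chromosome 11.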

How the data were processed

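RNA recovered with ALKBH5 and input RNA were sequenced, with 1 library each. The submitters' processing notes list the build hg38. How reads were aligned, how peaks were called and what the IgG control served for is not given in the sources used here. Per the file headers, the deposited GO (311 terms) and KEGG (38 pathways) tables hold for each term the count of entries and of background genes, a rich factor (the authors' ratio of shares), a p-value and a corrected p-value, which are the authors' own. Every term in them has a deposited p-value below 0.05, so a gene outside them is not seen. Depth is unknown. Identifiers were looked up in RefSeq (GRCh38.p14); all members matched and 3 of 5237 identifiers did not.

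A gene counted as listed when the GO or KEGG table named it on its own identifier by its own symbol or a synonym. The family table holds symbols without identifiers. A gene in it counted by its symbol, or by a synonym shared with no other gene. Members and lists were chosen with earlier results of these data known. Every member could be named, with full detail for the first 8 steps. Only counts, shares and medians were computed, with no test (Python 3.11.15, matplotlib 3.10.9). The code was tested on a simulated table. Alternatives were the KEGG or GO terms alone, the left-out genes kept, symbols in place of identifiers, other definitions of the family table and of listing. A few genes of the lists are counted but not reported by name here.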

Additional observations from a re-analysis of the deposited data

How the results depend on the processing

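The 123 members became 52 with the KEGG pathway alone and 189 when symbols were counted with those on AMBRA1's identifier kept. They stayed within 1.5 times with the GO terms alone (89), with the genes left out by name kept (130), and, chosen after seeing the data, with entry names alone removed (125), because antisense entries then keep the identifiers of MTOR and RPTOR. The 24 members in the family table became 11 of 52 (21.2%) for the KEGG pathway alone, since fewer members enter, and 16 of 89 (18.0%) for the GO terms. Requiring all families gave 16, and counting any symbol of an identifier, chosen after seeing the data, gave 28. The 120 members named by further terms stayed at 120 in both alternatives. The 84 listed genes of the step lists stayed at 84 in the GO or KEGG table alone and were 82 by terms other than the autophagy terms. In the single steps all 22 recomputed counts stayed within 1.5 times. No paired analysis was possible because each group has 1 library and the tables hold no value per library. Precision cannot be stated, as no read depth was available to these counts.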
